A study of Mus musculus with 4 samples.

Results

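Arginine is a cationic amino acid that cells import, make nitric oxide from, or break down to ornithine and urea. In endothelial cells, nitric oxide synthase and arginase draw on the same arginine, and the citrulline that nitric oxide synthase releases can be turned back into arginine. Ornithine in turn feeds the polyamines, small cations needed for growth. The 8 genes described here cover this route. Slc7a1 and Slc7a2 encode the cationic amino acid transporters CAT1 and CAT2, Arg1 and Arg2 the cytosolic and the mitochondrial arginase, and Ass1 and Asl the enzymes that rebuild arginine from citrulline. Odc1 encodes ornithine decarboxylase, which starts polyamine synthesis, and Azin1 an inhibitor of antizyme, the protein that sends ornithine decarboxylase to degradation.

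The genes are a set given by name, drawn up with earlier results of these data known. They are 8 of the 18193 genes that the arrays measured, and the array annotation lists 19 probe sets for them. Of these, 18 name a single gene and 1 names Ass1 together with Gm5424. Each gene was read from its brightest probe set, by the mean of the 4 arrays, out of those that name no other gene, and its other probe sets are given beside it.

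RNA was taken from endothelial cells made from mouse iPSCs, that is, induced pluripotent stem cells, which are body cells reset to an embryonic state. The donors were 2 healthy (control) animals and 2 with diet-induced obesity (DIO), aged 24 weeks, with 1 Affymetrix array each, called control 1, control 2, DIO 1 and DIO 2 here. All cells were grown in endothelial medium and trypsinized, and the labels name no strain, diet composition, cell sort or number of iPSC lines per mouse. The titles call the cells endothelial, whereas the cell type entry reads iPSC. The arrays of a group are duplicates from separate animals per the titles. Every p-value thus rests on the spread between such duplicates within both groups, drawn towards the spread typical of all genes. Part of that spread may be technical.

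Values are log2 expression levels, on which a difference of 1 is a doubling, and differences are taken as DIO minus control, with a standard error (SE). The comparison set cells of obese donors against cells of healthy donors. It was fitted over all 18193 genes in limma with Benjamini-Hochberg adjusted p-values, where 0 genes passed the threshold of 0.05 and 1198 had an unadjusted p under 0.05, 594 of them higher and 604 lower in DIO. After quantile normalization the split was 772 higher and 473 lower. With 2 arrays against 2, an exact 2-sided permutation test cannot give a p under 0.333.

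The cells were checked against markers of the labelled type and of others. In control 1, control 2, DIO 1 and DIO 2, 12 endothelial markers averaged 6.29, 6.41, 6.18 and 6.07. Among them Tie1 lay between 3.44 and 3.73 and Emcn between 3.47 and 3.88, where the lowest level of any probe set was 2.59. Cdh5 lay between 8.37 and 9.34, and Esam, the brightest of the list, between 8.66 and 9.11. Of the 12, 8 had the lower and 4 the higher mean in DIO. For 4 both DIO arrays lay below both controls, against 17% of all genes. The 10 pluripotency markers averaged 10.12, 9.12, 10.68 and 9.38, highest in DIO 1, from Dppa5a at 12.07 to 13.45 to Esrrb at 7.78 to 9.72. Of these, 10 had the higher mean in DIO, and for 0 both DIO arrays lay above both controls. The 9 measured epidermal markers averaged 6.82, 11.70, 8.03 and 8.87, and all 9 were highest in control 2. The mean was lower in DIO for all 9, and for 1 both DIO arrays lay below both controls. The simple epithelial markers, from Krt8 (14.00 to 14.09) to Cldn6 (8.20 to 8.94), averaged 12.26 to 12.38. The 6 measured trophoblast markers, from Plac1 (11.11 to 12.39) to Hand1 (6.77 to 7.72), averaged 8.96, 8.70, 9.25 and 9.57. All 6 had the higher mean in DIO, and for 4 both DIO arrays lay above both controls, against 21.4% of all genes. The 5 smooth muscle markers, from Acta2 (8.61 to 10.09) to Cnn1 (3.58 to 3.95), averaged 6.87, 6.30, 7.09 and 7.01. Of these, 4 had the higher and 1 the lower mean in DIO, and for 3 both DIO arrays lay above both controls. In such bulk RNA, more cells of a type and more RNA per cell cannot be told apart.

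Of the 8 genes, 0 passed the adjusted threshold and 0 had an unadjusted p under 0.05, which 6.58% of all genes had. The mean was higher in DIO for 5 and lower for 3, by at most 0.24, and the median difference was 0.03 against 0.02 over all genes. The DIO arrays were both above the controls for 1 of the 8, Odc1, against 21.4% of all genes, and below both for 0, against 17% of all genes. For 6 of the 8, all but Ass1 and Odc1, both DIO arrays lay between the 2 controls, as they did for 24.8% of all genes. The 2 controls lay farther apart than the group means for 7 of the 8, against 63.5% of all genes.

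**Figure D1:**
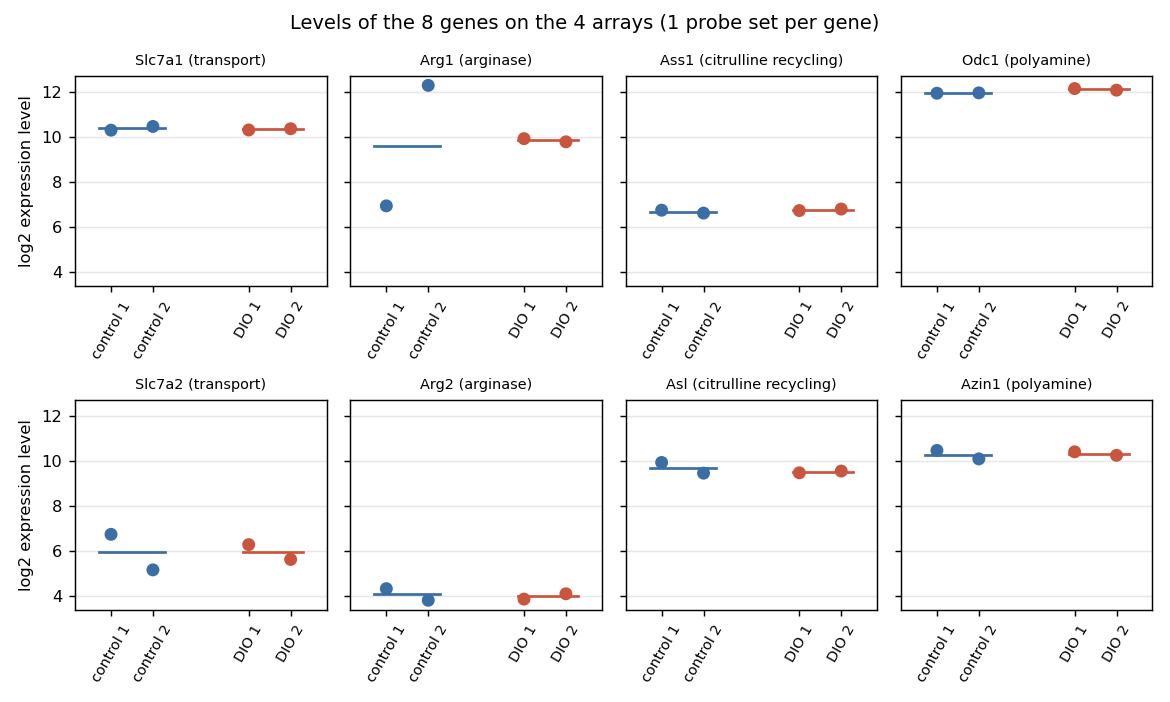
Log2 expression level of each of the 8 genes (vertical axis) on control 1, control 2, DIO 1 and DIO 2 (points), with the mean of each group as a horizontal line. Arg1 was at 6.95 and 12.30 on the control arrays and 9.93 and 9.79 on the DIO arrays, while the other 7 genes stayed within a range of 1.58, and levels of different genes come from different probe sets and are not on one scale of abundance.

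Arg1, the arginase of the urea cycle and of some macrophages and epithelia, had the widest range of the 8 genes. It was at 6.95 in control 1, 12.30 in control 2, 9.93 in DIO 1 and 9.79 in DIO 2. The controls thus differed from each other by 5.35, a 40.8-fold gap, while the DIO arrays lay 0.14 apart and between them. Only 60 of the 18193 genes had a range at least as wide, Arg1 included, and the median range over all genes was 0.43. The difference between the group means was 0.24 ± 1.86 (SE; limma, adjusted p = 0.984), with a 95% confidence interval from −4.85 to 5.33.

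The direction for Arg1 was set by which control was used. Without control 1 the difference was −2.44, and without control 2 it was 2.91. In each of these fits the remaining control array was assumed to vary like the DIO arrays, which for Arg1 lay close together. Leaving out DIO 1 or DIO 2 gave 0.17 and 0.31. Arg1 was read by 1 probe set, so no other measured it.

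Marker genes of other cell types were set beside Arg1, array by array. The 9 epidermal markers were highest in control 2, as Arg1 was, and 7 of them were lowest in control 1. Krt10, the brightest, was higher in control 2 than in control 1 by 6.96, and Trp63, the dimmest, by 4.22. The gap was smaller for Sfn, at 8.47 in control 1 and 9.56 in control 2, and for Krt14, at 9.12 and 11.42. Where the DIO arrays lay relative to the controls also varied. For Krt14 they were at 8.97 and 8.75, below both controls. For Sfn they were at 8.46 and 8.64, with DIO 1 just below control 1. Trp63 was at 4.15 and 8.37 on the control arrays and 4.55 and 4.84 on the DIO arrays, which were near control 1. Sprr1a was at 7.78 and 13.19 on the control arrays and 9.63 and 10.29 on the DIO arrays. Genes of the upper epidermis had gaps between the controls as large as that of Arg1: Krt1 was at 5.77 in control 1 and 12.96 in control 2, and the cornified envelope gene Ivl at 4.96 and 10.75. On the DIO arrays 8 of the 9 were higher in DIO 2 than in DIO 1, by 2.09 for Krt1, 1.40 for Ivl, 0.66 for Sprr1a and 0.62 for Krt6a. For Krt14 that difference was −0.22, and for Arg1 it was −0.14. The group mean was lower in DIO for all 9 markers, whereas that of Arg1 was higher, by 0.24.

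Of 7 liver and yolk sac markers, Afp and Ttr, which encode secreted proteins of fetal liver and yolk sac, also differed widely between the controls. Afp was at 4.29 in control 1, 9.62 in control 2, 5.83 in DIO 1 and 5.72 in DIO 2. Ttr was at 5.12, 9.55, 7.38 and 8.82 on the same arrays. Alb, the albumin gene, stayed between 3.92 and 4.32. Of the 7 markers, 2 were highest in control 2, 4 in DIO 2 and 1 in control 1. The level was lower in control 2 than in control 1 for 2 of them. The list averaged 4.89 and 6.45 on the control arrays and 5.52 and 6.15 on the DIO arrays.

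The 7 macrophage markers had ranges of 0.28 to 0.79 over the 4 arrays. The pan-leukocyte gene Ptprc lay between 3.84 and 4.11 and the integrin gene Itgam between 3.32 and 3.85, but others were bright. Csf1r, the receptor for macrophage colony-stimulating factor, was at 11.47 and 11.66 on the control arrays and 11.11 and 11.03 on the DIO arrays, which lay below both controls (limma, unadjusted p = 0.0228, adjusted p = 0.728). Cd68 lay between 10.30 and 11.09, and the list averaged 6.44 and 6.24 on the control arrays and 6.35 and 6.35 on the DIO arrays. None of these 7 markers differed between the controls by as much as Arg1 did. A range as wide as that of Arg1 was reached by only 0.33% of all genes. The 7 fibroblast and mesenchymal markers were all higher in control 2 than in control 1, by a median of 1.46, and 5 were highest in control 2 and 5 lowest in control 1. The list averaged 6.36 and 7.70 on the control arrays and 6.63 and 7.01 on the DIO arrays. Col3a1, the brightest, was at 7.52 in control 1, 10.29 in control 2, 7.35 in DIO 1 and 8.46 in DIO 2, and Thy1, the dimmest, lay between 4.48 and 5.76. The part that epidermal, yolk sac, macrophage or mesenchymal cells had in the level of Arg1 was not tested.

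**Figure D2:**
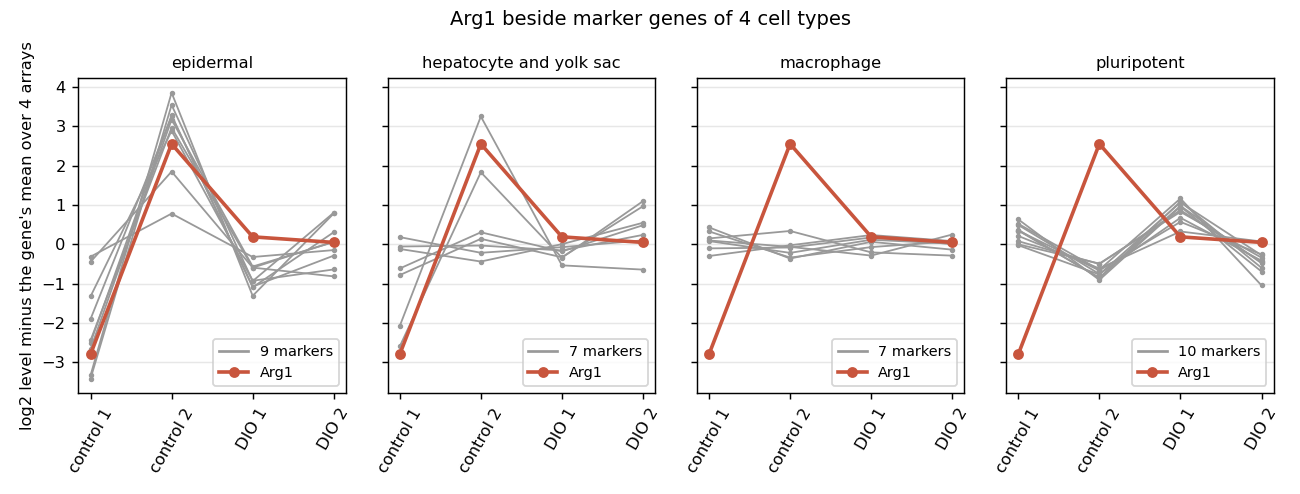
Log2 level of Arg1 (thick line) and of marker genes of 4 cell types (thin lines, 1 per gene), each minus its own mean over the 4 arrays (vertical axis), on control 1, control 2, DIO 1 and DIO 2 (horizontal axis, lines only join the values of a gene). All 9 epidermal markers peak in control 2 with Arg1, while the 7 macrophage markers span at most 0.79 and the 10 pluripotency markers are lower in control 2 than in control 1.

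The genes with the most similar pattern to Arg1 were found by the distance between their 4 levels, each taken minus the gene's own mean, among 8921 named genes above the median level. The closest was Upk1b, a uroplakin gene of the urothelial plaque, at 7.45 and 12.26 on the control arrays and 10.04 and 9.73 on the DIO arrays, a distance of 0.45. The next were Upk3bl, at a distance of 0.87, and S100a14, at 0.91. With 4 arrays such a likeness is a description only. The same order of arrays as for Arg1, control 1 lowest, then DIO 2, DIO 1 and control 2, was seen in 2.85% of all genes.

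Arg2, the mitochondrial arginase, was at 4.32 in control 1, 3.81 in control 2, 3.86 in DIO 1 and 4.10 in DIO 2. The groups overlapped, with a difference of −0.09 ± 0.23 (limma, adjusted p = 0.944). It was at 0.17 without control 1 and 0.03 without DIO 1. Its other probe set, 1438841_s_at, lay between 3.27 and 3.65 with a difference of −0.14. Arg2 was among the dimmest 40% of genes, and no detection calls were used, so how far it lay above background is not known. The wide gap between the controls in Arg1 had no counterpart in Arg2, whose controls differed by −0.52, in the opposite direction.

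Slc7a1, the constitutive arginine transporter, had the narrowest range of the 8 genes. It was at 10.31 in control 1, 10.47 in control 2, 10.32 in DIO 1 and 10.37 in DIO 2, a range of 0.16. The difference was −0.05 ± 0.13 (limma, adjusted p = 0.949), with a 95% confidence interval from −0.41 to 0.32, and it was 0.04 without control 2. As a ratio, the interval runs from 0.752 to 1.25 times the control level. Of its other probe sets, 1454992_at was at 9.66 in both controls and at 9.56 and 9.62 in DIO, so that the DIO arrays lay below, by 0.04 at the nearest. The dim 1421533_at differed by 0.07.

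Slc7a2, the transporter that is induced by inflammatory signals in many cells, had the second widest range. It was at 6.74 in control 1, 5.16 in control 2, 6.28 in DIO 1 and 5.62 in DIO 2, so that the groups overlapped, with the control arrays farther apart than the DIO arrays. The difference of the group means was 0.00 ± 0.61 (limma, adjusted p = 1.0), with a confidence interval from −1.65 to 1.66. Without control 1 it was 0.79, without control 2 −0.79, without DIO 1 −0.32 and without DIO 2 0.33. A range as wide as 1.58 was reached by 3.84% of all genes, and Slc7a2 was among the dimmest 40% of genes.

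All 4 probe sets of Slc7a2 ranked the arrays alike, with control 1 highest, then DIO 1, DIO 2 and control 2, an order that 8.12% of all probe sets had. The other 3 were dim, between 3.10 and 4.29, with ranges of 0.32 to 0.45, where the lowest level of any probe set was 2.59. The same order was seen in the dim 1421533_at of Slc7a1 and in 1450714_at of Azin1, so it was not particular to Slc7a2. The 4 probe sets of Slc7a2 name the same gene and were read on the same arrays, so they are not independent measurements. Of the 10 pluripotency markers, 10 had a lower level in control 2 than in control 1, and 10 a lower level in DIO 2 than in DIO 1. All 10 were highest in DIO 1, so none had the order of Slc7a2. Control 2 had the lower value of the 2 controls for all 5 smooth muscle markers as well, and for 62.1% of all genes. Whether pluripotent or smooth muscle cells had a part in the level of Slc7a2 was not tested. The genes closest to it in pattern were Tspo2 at a distance of 0.23, Apobec2 at 0.23 and Cdyl2 at 0.25, among 8922.

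The citrulline route showed small differences. Asl, argininosuccinate lyase, was at 9.93 in control 1, 9.45 in control 2, 9.47 in DIO 1 and 9.55 in DIO 2. Both DIO arrays were close to control 2, and control 1 stood higher. The difference was −0.18 ± 0.21 (limma, adjusted p = 0.857), at −0.42 without control 2 and 0.05 without control 1.

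Ass1, argininosuccinate synthase, the enzyme that joins citrulline and aspartate, was at 6.76 in control 1, 6.63 in control 2, 6.74 in DIO 1 and 6.81 in DIO 2. These levels come from 1459937_at, the only probe set that names Ass1 alone, and overlap between the groups. The difference was 0.08 ± 0.13 (limma, adjusted p = 0.896), with a confidence interval from −0.27 to 0.44, and it was 0.21 after quantile normalization and 0.02 without control 2. A second probe set, 1416239_at, is listed for Ass1 and Gm5424 together, so its signal cannot be given to either. It was at 9.97 in control 1, 9.14 in control 2, 10.08 in DIO 1 and 9.97 in DIO 2, a difference of 0.47 ± 0.30 (limma over all probe sets, adjusted p = 0.667). Control 1 and DIO 2 had the same deposited value there, and control 2 was lower than the other arrays.

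Odc1, at the entry to the polyamines, was the only one of the 8 with separate groups, joined by Ass1 after quantile normalization or centring. It was at 11.95 in control 1, 11.97 in control 2, 12.16 in DIO 1 and 12.09 in DIO 2. Both DIO arrays were higher, by 0.12 at the nearest, and the controls differed by only 0.02. The difference of 0.16 ± 0.12 did not pass (limma, adjusted p = 0.789), with a confidence interval from −0.17 to 0.50, and it ran from 0.13 to 0.20 when 1 array was left out.

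The 3 probe sets of Odc1 each separated the groups, but not in the same direction. Probe set 1437711_x_at was at 10.22 in control 1, 10.99 in control 2, 11.50 in DIO 1 and 11.81 in DIO 2, a difference of 1.05 ± 0.30 (limma over all probe sets, unadjusted p = 0.022, adjusted p = 0.531). Probe set 1427364_a_at was at 8.60 and 8.66 on the control arrays and 8.53 and 8.40 on the DIO arrays, and the groups differed by −0.17 ± 0.12 (adjusted p = 0.697). The ending _x_at is the manufacturer's mark for a probe set that may bind transcripts of other genes too. Averaged over its probe sets, Odc1 differed by 0.35 (limma, adjusted p = 0.736), and the size of its difference therefore depended on the probe set.

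Azin1, which frees ornithine decarboxylase from antizyme, was at 10.46 in control 1, 10.09 in control 2, 10.40 in DIO 1 and 10.25 in DIO 2. The DIO arrays lay between the controls and the difference was 0.05 ± 0.18 (limma, adjusted p = 0.964). It was −0.14 without control 2 and −0.03 without DIO 1. Probe set 1422702_at gave another picture, at 9.57 and 9.34 on the control arrays and 9.02 and 8.84 on the DIO arrays. Its DIO arrays lay below both controls by 0.32 at the nearest, and the difference was −0.52 ± 0.15 (limma over all probe sets, unadjusted p = 0.0209, adjusted p = 0.531). Averaged over its 3 probe sets Azin1 differed by −0.18 (adjusted p = 0.827).

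Over all 18 probe sets that name 1 of the 8 genes, 0 passed the adjusted threshold. Those 2, of Odc1 and Azin1, had an unadjusted p under 0.05, which 9.29% of all probe sets had. The DIO arrays were both above the controls for 2 probe sets, where 22.3% of all probe sets did, and below for 3, where 19% did.

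**Figure D3:**
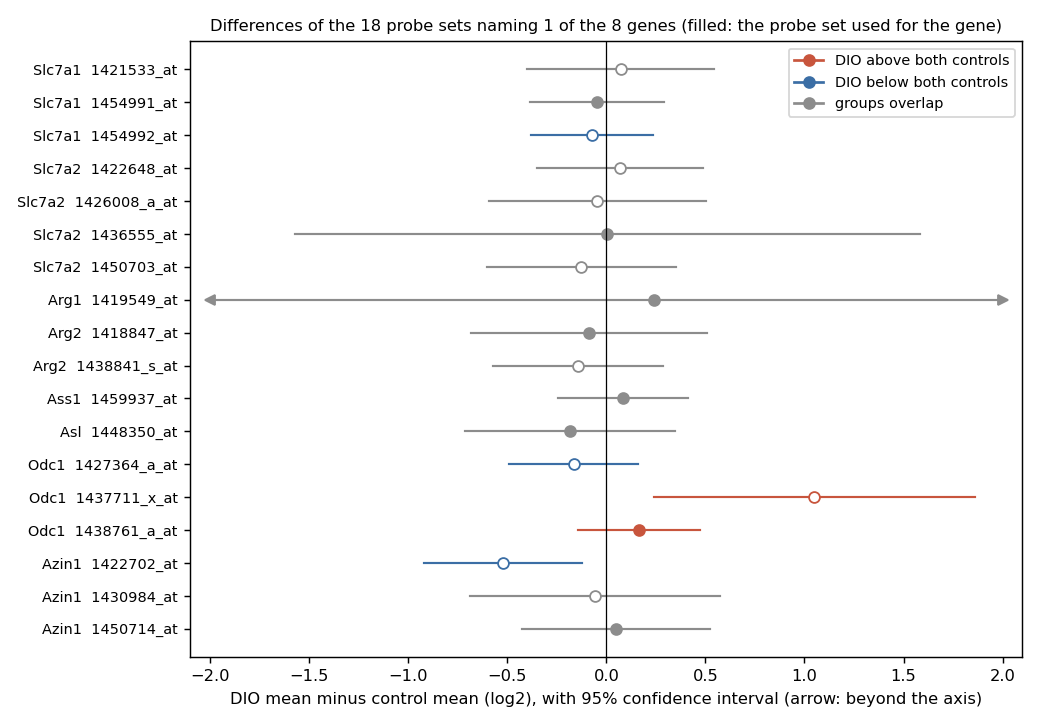
Difference of group means, DIO minus control, in log2 units (horizontal axis) for each of the 18 probe sets that name 1 of the 8 genes, with 95% confidence intervals from limma. Probe sets of Odc1 lie on either side of 0, from −0.17 to 1.05, those of Azin1 run from −0.52 to 0.05, and the interval of Arg1 leaves the axis on both sides.

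Promoter windows from RefSeq, on GRCm38.p6, were found for 3 of the 8 genes, from 250 bases before to 50 after an annotated start. The windows of Odc1, which had separate groups, and of Ass1, whose 4 levels lay within 0.18 of each other and overlapped between the groups, are printed 5′ to 3′ on the gene's strand. Capitals mark the GC box GGGCGG and the E-box CACGTG, searched on both strands with TATAAA. The Odc1 window is chr12:17544623-17544922 and the Ass1 window chr2:31470020-31470319, both on the plus strand.
Odc1: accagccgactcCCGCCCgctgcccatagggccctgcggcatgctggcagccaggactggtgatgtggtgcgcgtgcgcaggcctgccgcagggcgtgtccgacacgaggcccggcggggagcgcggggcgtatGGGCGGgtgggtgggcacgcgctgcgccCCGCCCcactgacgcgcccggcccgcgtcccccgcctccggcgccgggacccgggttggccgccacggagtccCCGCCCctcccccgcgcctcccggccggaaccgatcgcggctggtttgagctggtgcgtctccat
Ass1: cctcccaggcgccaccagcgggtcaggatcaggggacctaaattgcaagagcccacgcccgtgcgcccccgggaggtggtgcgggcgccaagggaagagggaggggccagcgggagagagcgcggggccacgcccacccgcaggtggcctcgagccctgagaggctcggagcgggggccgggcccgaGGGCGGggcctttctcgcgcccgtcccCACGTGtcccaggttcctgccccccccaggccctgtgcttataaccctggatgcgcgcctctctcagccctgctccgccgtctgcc
The Odc1 window held 4 GC boxes, 1 in the forward direction and 3 on the opposite strand, and no E-box. The Ass1 window held 1 GC box and 1 E-box, which starts 36 bases before the annotated start. Neither held TATAAA. None of the marked motifs overlap. Of 32851 such windows, 35.7% held a GC box, 7.15% the E-box and 13.6% TATAAA. These are matches of letters and no measurement of binding, and the arrays measured transcripts alone.

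The other genes of arginine and polyamine metabolism were taken from 8 lists with 63 genes, of which 56 were measured by a probe set naming them alone. The other 7 were not analysed here. Of the 56, 0 passed the adjusted threshold, and 2 had an unadjusted p under 0.05, 1 higher and 1 lower, against 6.58% of all genes. The DIO arrays were both above the controls for 8 and below for 8, which is 14.3% each, against 21.4% and 17% of all genes. The median difference was 0.02. In control 2, 40 of the 56 were lower than in control 1, or 71.4%, where 62.1% of all genes were.

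Among 9 other cationic amino acid transport genes, 3 had the higher and 6 the lower mean in DIO, and the median difference was −0.15, running from −0.28 without DIO 1 to −0.02 without control 1, and at −0.05 after quantile normalization. Slc25a29, a mitochondrial carrier of basic amino acids, was at 6.53 and 6.49 on the control arrays and 6.87 and 7.08 on the DIO arrays, and the groups differed by 0.46 ± 0.14 (limma, unadjusted p = 0.0269, adjusted p = 0.728). Slc7a7 and Slc7a9, light chains that carry cationic amino acids across epithelia, differed by −0.58 ± 0.23 and −0.44 ± 0.18, and neither passed (adjusted p = 0.728). Their DIO arrays lay below both controls. Slc3a2, the heavy chain of several such transporters, differed by 0.01, and by −0.19 without control 2, and Slc66a1, the lysosomal exporter of cationic amino acids, by −0.16.

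In the urea cycle list, 5 of 7 had the higher mean in DIO, and the median difference was 0.14. Without control 2 it was 3 of 7 with a median of −0.10, and without DIO 1 3 of 7 with a median of −0.02. Slc25a15, which exchanges ornithine for citrulline across the mitochondrial membrane, was at 7.87 and 7.98 on the control arrays and 8.21 and 8.48 on the DIO arrays, and the groups differed by 0.42 ± 0.16 (limma, adjusted p = 0.728). Cps1 lay between 3.98 and 4.23, differing by 0.14, and Slc25a2 between 3.47 and 3.67, differing by −0.15. The aspartate carriers Slc25a12 and Slc25a13 differed by 0.16 and 0.23, and by −0.18 and −0.14 without control 2.

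Of 7 measured genes of ornithine, proline, creatine and agmatine metabolism, 3 had the higher and 4 the lower mean in DIO, and the median difference was −0.0033. Without control 1, 7 of 7 were higher, with a median of 0.26. The DIO arrays were both above the controls for 3, against 21.4% of all genes. Agmat, annotated as agmatinase, was at 4.92 and 4.47 on the control arrays and 5.22 and 5.18 on the DIO arrays, and the groups differed by 0.50 ± 0.20 which missed the threshold (limma, adjusted p = 0.728). Aldh18a1, which makes the precursor of proline from glutamate, differed by 0.40 ± 0.19, and another of its probe sets had the opposite sign at −0.06. Aldh4a1, which oxidizes that precursor, differed by 0.22 ± 0.12. Oat, ornithine aminotransferase, which links ornithine to proline, was at 9.65 and 9.54 on the control arrays and 9.66 and 9.52 on the DIO arrays, and neither group was apart.

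Of 8 measured polyamine genes, 5 had the higher and 3 the lower mean in DIO, and the median difference was 0.02. Without control 2 it was 1 higher and 7 lower, with a median of −0.11. The DIO arrays lay below both controls for 3, against 17% of all genes. Smox, spermine oxidase, was at 9.19 and 9.81 on the control arrays and 8.60 and 8.84 on the DIO arrays, and the groups differed by −0.78 ± 0.26 (limma, unadjusted p = 0.037, adjusted p = 0.728). Sat1, which acetylates spermidine and spermine for export or breakdown, was at 11.14 and 11.87 on the control arrays and 11.08 and 11.08 on the DIO arrays. Its difference of −0.42 ± 0.28 did not pass (adjusted p = 0.778), and it was −0.79 without control 1 and −0.059 without control 2. That of Smox was −1.09 and −0.47 in the same fits. Eif5a2 differed by −0.24, and Eif5a, the translation factor that carries the hypusine made from spermidine, by 0.03.

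The antizyme list differed by −0.13 to 0.12. Oaz1, the main antizyme, was at 12.58 and 12.82 on the control arrays and 12.79 and 12.76 on the DIO arrays, and the groups differed by 0.07. Oaz2 differed by 0.03, and both other probe sets of it by −0.12 and −0.23, Oaz3 by −0.13 and Azin2 by 0.12.

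Nitric oxide synthases take arginine as their substrate. Nos3, the endothelial form, was at 6.25 in control 1, 7.06 in control 2, 6.29 in DIO 1 and 6.19 in DIO 2, so control 2 alone stood higher. Nos1 was at 9.28 and 8.37 on the control arrays and 8.76 and 8.89 on the DIO arrays, between them, and Nos2 lay between 5.03 and 5.29. None of the 3 passed (limma, adjusted p = 0.788 for Nos3).

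In the arginine methylation list, which also holds the enzymes that clear methylated arginines, 11 of 12 had the higher mean in DIO, and the median difference was 0.13. Of the same 12, 11 were lower in control 2 than in control 1, and 10 were lowest in control 2 among the 4 arrays. Without control 2, 4 of the 12 had the higher mean in DIO and 8 the lower, with a median of −0.05, and without control 1 all 12 the higher, with a median of 0.34. Prmt1, the main asymmetric arginine methyltransferase, differed by 0.22 ± 0.15 (limma, adjusted p = 0.784), Prmt2 by −0.01 and Agxt2 by 0.13. Ddah1, which breaks down asymmetric dimethylarginine, an inhibitor of nitric oxide synthase, was at 9.75 and 9.25 on the control arrays and 10.38 and 9.50 on the DIO arrays. Its difference of 0.44 ± 0.37 became −0.0005 without DIO 1.

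Of 6 genes of arginine sensing and arginyl-tRNA, 2 had the higher mean in DIO, 0 of them without control 2 and 4 without control 1. Castor2, a relative of the arginine sensor Castor1 that acts upstream of mTORC1, was at 8.22 and 9.13 on the control arrays and 7.83 and 7.97 on the DIO arrays. The difference was −0.78 ± 0.34 (limma, adjusted p = 0.730). Without control 1 it was −1.24, and without control 2 it was −0.32. The other probe sets of Castor2 differed by −0.99, −0.17 and 0.15. Castor1 differed by 0.06, the lysosomal arginine sensor Slc38a9 by −0.33, with 4 other probe sets of the same sign and 2 of the opposite, and Rars, the arginyl-tRNA synthetase, by −0.11.

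**Figure D4:**
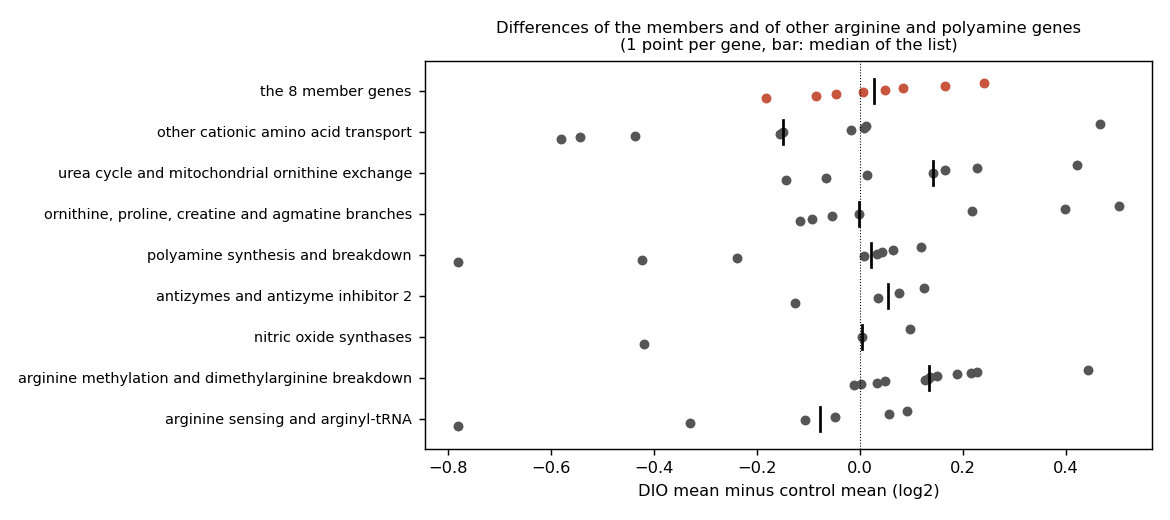
Difference of group means, DIO minus control, in log2 units (horizontal axis) for the 8 genes and for the 56 measured genes of 8 related lists, 1 point per gene, with the median of each list as a bar. The 8 genes stay between −0.18 and 0.24, and the lowest values are those of Smox and Castor2 at −0.78.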

How the data were processed

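The 4 arrays were compared from 1 deposited table, which holds a log2 expression level for each probe set. How the authors corrected, normalized and summarised the signals is not given in the sources used, and the log2 scale was read from the values. Array medians were 5.60 to 5.64. Of 45101 probe sets, 64 manufacturer controls were left out, 34945 named 1 gene, 932 several and 9160 were unlisted. RefSeq matched 34741 of the 34945 by gene number. DIO and control were fitted in limma 3.58.1 under R 4.3.3 (lmFit, eBayes, 2-sided) over all 18193 genes and, separately, over all probe sets, with no filter.

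The 8 genes and the lists were chosen with earlier results of these data known. Of each related list, the 3 genes with the smallest p and the 2 brightest were named, and of each marker list the brightest, the dimmest and some chosen after their values were seen. On simulated arrays with 18193 genes, 200 of them changed, the fit recovered 0% at a log2 change of 1, 60.3% at 2 and 86.5% at 3. The number of arrays limits the precision: the 95% confidence interval reached a median of 0.456 to either side. Alternatives were quantile normalization, centring, a filter on the dimmest 40%, averaged or other probe sets, trended and robust eBayes, a replicate block and leaving out each array.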

Additional observations from a re-analysis of the deposited data

How the results depend on the processing

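With 2 arrays per group and no detection calls, small differences and dim probe sets are not resolved. In all alternatives 0 genes passed the adjusted threshold in limma, except without control 1, where 483 did. In 33 of 87 refits the difference of a member was the same number by construction (eBayes settings, the block, and filters or probe set rules that left it as it was). In the other 54 it kept its direction in 43. Only Arg1 passed in any of them, in the fit without control 1, which leaves a lone control. Of the related genes named, Castor2 passed in that fit too. Most of the genes that passed there were lower in DIO. Leaving out 1 array turned 29 of the 33 related genes named or moved them by over 1.5 times. The cause of these reversals was not tested.

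Leaving out each array in turn gave −2.44 to 2.91 for Arg1, −0.79 to 0.79 for Slc7a2, −0.35 to 0.17 for Arg2, −0.42 to 0.055 for Asl, −0.13 to 0.036 for Slc7a1 and −0.14 to 0.24 for Azin1. The number of the 8 genes with both DIO arrays above the controls ran from 1 to 6 and below from 0 to 4, where a lone control makes separation easier. Genes at an unadjusted p under 0.05 ran from 171 to 3689 and those past the adjusted threshold from 0 to 483. Of the other 10 probe sets, those that turned were 1421533_at of Slc7a1 (−0.13 to 0.27), 1422648_at, 1426008_a_at and 1450703_at of Slc7a2 (−0.090 to 0.23, −0.27 to 0.18 and −0.32 to 0.071) and 1430984_at of Azin1 (−0.36 to 0.25). Of the related genes, Oat ran from −0.073 to 0.066, Oaz1 from −0.043 to 0.19, Oaz2 from −0.21 to 0.28, Prmt2 from −0.14 to 0.12, Rars from −0.39 to 0.17, Slc3a2 from −0.19 to 0.22, Slc25a12 from −0.18 to 0.51, Slc25a13 from −0.14 to 0.59, Azin2 from −0.071 to 0.32, Nos1 from −0.45 to 0.46, Castor1 from −0.12 to 0.23, Ddah1 from −0.0005 to 0.89 and Eif5a from −0.017 to 0.082.

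With probe sets averaged, Slc7a2 was at −0.025, Azin1 at −0.18 and Oaz2 at −0.10. Without probe sets ending in _x_at or _s_at, Aldh18a1 was at −0.061 and Oaz3 at 0.21. Quantile normalization gave 2 of the 8 genes above both controls, Oat at 0.054, Eif5a at −0.0072 and Prmt2 at 0.012, and centring gave 2 above, Oat at 0.025 and Prmt2 at 0.016. Without the dimmest 40% of genes, which removes Arg2 and Slc7a2, 607 genes had an unadjusted p under 0.05. The replicate numbers name separate mice and pair nothing. With the replicate block 982 genes had an unadjusted p under 0.05 and the differences were the same by construction. The shared probe set of Ass1, an alternative chosen after seeing the data, gave 0.47.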
